A study of Homo sapiens with 12 samples.

Results

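Tight junction genes were followed in HT1376, an established human bladder cancer line, in which FOXP3 had been targeted by CRISPR. The 10 genes were taken by name from the 60666 genes of the count table: 6 claudins (CLDN1, CLDN2, CLDN3, CLDN4, CLDN7 and CLDN12), occludin (OCLN), tricellulin (MARVELD2), the scaffold ZO-1 (TJP1) and EPCAM. The choice used no measured value as its rule, but it was made with earlier results of these data known. Per the paper, HT1376 CT is a clonal control line made with a guide against luciferase and HT1376 FOXP3 KO is a clonal line in which CRISPR targeted FOXP3. The control libraries are labelled WT, and the name HT1376 CT for them is taken from the paper's methods. Each line was grown without IFNγ or with IFNγ for 48 hours, which gave 4 groups of 3 libraries numbered 11, 12 and 13. Since the lines are described as clonal, the loss of FOXP3 and other differences between clones cannot be told apart. How many clones of each line were sequenced is not stated. The sources do not say whether the 3 libraries of a group came from separate cultures, so p-values measure at most the spread between these libraries.

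Tight junctions seal the space between neighbouring epithelial cells near their apical side. Claudins form the strands of the seal and set which ions pass, occludin and tricellulin are strand proteins that share a MARVEL domain, and ZO-1 ties the strands to actin. EPCAM is a surface adhesion protein of epithelia known to bind CLDN7. In urothelium this seal separates urine from tissue, and its loss is a known feature of epithelial-to-mesenchymal transition. All of these proteins can be moved or degraded without a change in RNA, and only RNA was measured here.

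The libraries held between 4490684 and 39270042 counts assigned to genes, so that 3 counts stood for 0.0793 to 0.692 CPM, the library-size-normalised read count. FOXP3 itself had at most 3 counts in any library of either line, so the RNA did not check the knockout. The epithelial identity of the line could be checked: 8 of 8 epithelial markers had a mean of at least 1 CPM in every group, with a summed level of 4349 to 4676 CPM in untreated HT1376 CT and 4018 to 4845 CPM in untreated HT1376 FOXP3 KO. Single markers differed all the same: untreated KRT13 was lower in the knockout (87.9 against 14.9 CPM, log2 fold change -2.54), as was CDH1, and KRT7 was higher (645 against 1231 CPM, 0.95). Of 7 urothelial markers, 3 (UPK1B, GATA3 and PPARG) reached 1 CPM, and UPK3A had no count in any library. In untreated cells GATA3 (-0.68) and UPK1B (-0.40) were lower in the knockout and PPARG (1.45) was higher. Fibroblast markers moved with the line: the summed level of the 7 genes was 46.1 to 66.1 CPM in untreated HT1376 CT and 479 to 732 CPM in untreated HT1376 FOXP3 KO, and 24.9 to 34.5 against 450 to 667 CPM under IFNγ. Of these 7, COL1A2, COL3A1, DCN, LUM and PDGFRB were higher in the knockout under both conditions, COL1A1 was lower, and PDGFRA stayed at a mean of 0.17 CPM or less in every group. Leukocyte markers summed to at most 3.001 CPM and endothelial markers to at most 2.32 CPM in any library. The part of the fibroblast genes in the results on tight junction genes was not tested.

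The members lie on 7 chromosomes of GRCh38. CLDN3 (chr7:73768997-73770270, minus strand) and CLDN4 (chr7:73799542-73832690, plus strand) are neighbours that face away from each other, and the main transcript of each has 1 exon. OCLN (chr5:69492292-69558104) and MARVELD2 (chr5:69415065-69444330) are neighbours on the plus strand. CLDN1 lies at chr3:190305707-190322446, CLDN7 at chr17:7259903-7263983, CLDN12 at chr7:90383721-90513402, CLDN2 at chrX:106900164-106930861, TJP1 at chr15:29699367-29968915 and EPCAM at chr2:47345158-47387601. CLDN7 shares 2187 bases with a same-strand gene model, ENSG00000262302. The locus of CLDN12 overlaps GTPBP10, CDK14 and PTTG1IP2 on the same strand. How reads that match several genes were handled is not given in the sources used here. Reads of overlapping genes may therefore be shared out or lost. The small differences of CLDN12 are uncertain for this reason, and the level of CLDN7 and its share among the claudins carry the same limit.

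Promoters of 9 of the 10 members were in the table used here, drawn from RefSeq (GRCh38.p14), 15 promoters in all, each reaching from 250 bases before to 50 bases after a start site. That table is not complete and held none for EPCAM. The promoters were searched on both strands for 7 motifs: the E-box CAGGTG, the palindromic E-box CAGCTG, the forkhead core TAAACA, the STAT site TTCNNNGAA, the grainyhead site AACCNGTT, the AP-2 site GCCNNNGGC and the TATA box TATAAA, with overlaps between motifs allowed. CAGGTG, a sequence that SNAI and ZEB repressors are known to bind in promoters of junction genes, was present in 5 of the 15 promoters, which belong to CLDN3, CLDN7, OCLN and TJP1, and in 20.6% of all 35116 promoters of this length. A single CLDN7 promoter held 5 matches. The windows below show the matches upstream of the start site in 3 of the genes that were lower in HT1376 FOXP3 KO, 5′ to 3′ on the strand of the gene. Capitals mark the match that the line names, which reads CACCTG where it lies on the opposite strand, and the windows of the CLDN7 matches 20 and 9 bases upstream overlap.
CLDN7, 174 bases upstream, chr17:7262635-7262664, minus strand: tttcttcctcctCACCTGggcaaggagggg
CLDN7, 135 bases upstream, chr17:7262596-7262625, minus strand: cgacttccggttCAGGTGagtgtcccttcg
CLDN7, 20 bases upstream, chr17:7262481-7262510, minus strand: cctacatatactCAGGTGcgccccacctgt
CLDN7, 9 bases upstream, chr17:7262479-7262508, minus strand: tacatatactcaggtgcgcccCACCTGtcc
OCLN, 33 bases upstream, chr5:69492502-69492531, plus strand: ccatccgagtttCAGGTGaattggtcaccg
OCLN, 133 bases upstream of another start site, chr5:69492645-69492674, plus strand: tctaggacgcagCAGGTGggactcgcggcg
TJP1, 88 bases upstream, chr15:29969120-29969149, minus strand: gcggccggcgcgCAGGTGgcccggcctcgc

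The other motifs were rarer among the members. The STAT site was found upstream of CLDN12 and CLDN2, against 7.66% of all promoters, and the CLDN12 match is shown because its RNA can be set beside the IFNγ treatment described further on.
CLDN12, 95 bases upstream, chr7:90403356-90403385, plus strand: gcccagtggaTTCTGGGAAttgtagtccca
The palindromic E-box was found for CLDN4 (17.9% of all promoters) and the AP-2 site for CLDN2, CLDN3 and CLDN12 (23.2%). The forkhead core (12.3%), the grainyhead site (1.73%) and the TATA box (11.5%) were in 0 of the 15 windows. These matches describe the letters of the reference and are not measured binding sites.

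Per length of annotated exon, CLDN1 was the most abundant member in untreated HT1376 CT, at 64.8 ± 12.2 RPKM (CPM per kilobase of annotated exon; SD, n = 3). It was followed by CLDN7 at 53.5 ± 9.55, CLDN4 at 42.9 ± 9.10, EPCAM at 35.0 ± 6.60 and TJP1 at 34.0 ± 2.47 RPKM. These 5 neighbours in the order differed by less than the sum of their SDs. MARVELD2 (17.8 ± 1.24 RPKM) and OCLN (15.3 ± 3.11 RPKM) lay lower and differed by less than the sum of their SDs, and CLDN12 reached 6.93 ± 0.506 RPKM. CLDN3 was at 0.768 ± 0.181 RPKM. CLDN2, a claudin of leaky epithelia, had 1 count over all 12 libraries and was not detectable at this depth. With the longest transcript as the length, CLDN7 (34.7% of the summed claudins) stood above CLDN1 (34.1%) in untreated HT1376 CT. The exon union and longest transcript measure 11259 and 6438 bases for OCLN, and 2430 and 1547 bases for EPCAM. The places of OCLN and EPCAM therefore also depend on the length used. In untreated HT1376 FOXP3 KO the order was CLDN1 (50.0 ± 17.6), TJP1 (21.1 ± 2.18), CLDN7 (20.9 ± 1.92), MARVELD2 (11.1 ± 2.67), CLDN4 (10.8 ± 1.61) and EPCAM (9.13 ± 0.459 RPKM), with OCLN and CLDN12 at 5.63 RPKM each.

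**Figure D1:**
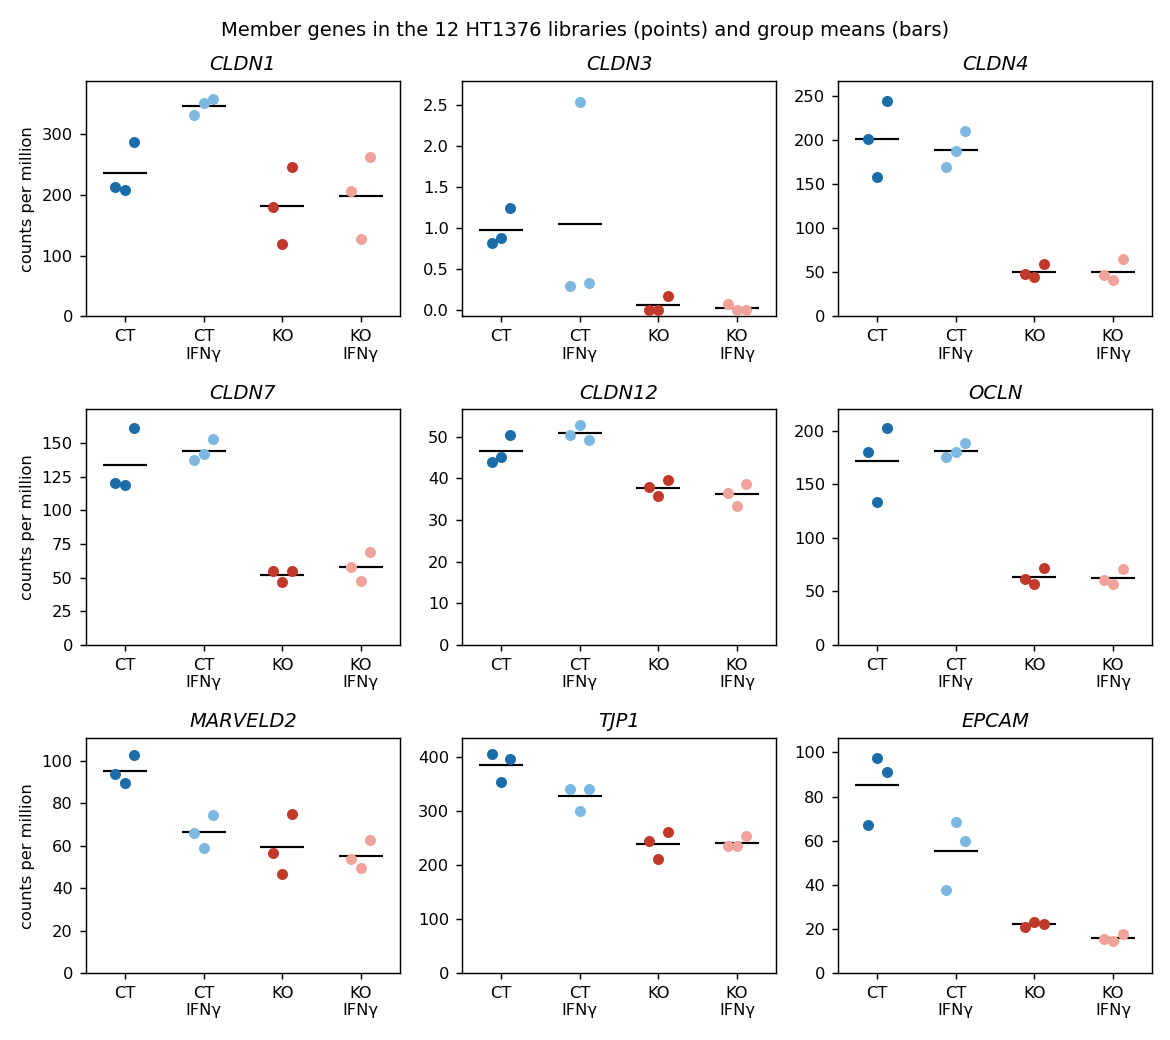
CPM (linear axis, own scale per gene) of 9 members in each library (points, in the order 11, 12, 13) and the mean of each group (bars). CLDN4, CLDN7, OCLN and EPCAM are lower in all 6 HT1376 FOXP3 KO libraries than in any of the 6 HT1376 CT libraries, while CLDN1 overlaps between the untreated lines.

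The first comparison asked how the lines differed without IFNγ. CLDN4, CLDN7, OCLN and EPCAM were the members with clear reductions, to 25.1%, 39.1%, 36.8% and 26.1% of the mean CPM of HT1376 CT. TJP1 and MARVELD2 fell less, both to 62.2%, and CLDN3 fell from a level that was already low. Of the 9 members that could be tested, 7 were lower and 0 higher in HT1376 FOXP3 KO, against 18.2% of all 25320 tested genes lower and 14.0% higher. The median log2 fold change of the 9 was -1.34, beside -0.02 over all genes. The estimate was under 0 for all 9 by edgeR and by DESeq2.

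CLDN4, a claudin that tightens the barrier to sodium, stood at 201, 159 and 244 CPM in HT1376 CT and at 47.8, 44.9 and 59.1 CPM in the knockout. The groups were far apart, with a log2 fold change of -1.98 ± 0.17 (SE; edgeR quasi-likelihood test, adjusted p = 7.1e-06). CLDN7, the claudin that binds EPCAM, had 120, 119 and 161 CPM against 54.6, 46.6 and 55.2 CPM. All control libraries lay far above all knockout libraries, with a log2 fold change of -1.34 ± 0.14 (adjusted p = 3.5e-05). EPCAM had 67.0, 97.3 and 91.1 CPM against 20.9, 23.1 and 22.5 CPM. The knockout libraries of EPCAM were close together and all far under the controls (log2 fold change -1.92 ± 0.15, adjusted p = 4.6e-06).

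OCLN, the first strand protein of the tight junction to be described, had 180, 134 and 202 CPM in HT1376 CT and 61.6, 56.7 and 71.9 CPM in HT1376 FOXP3 KO. The groups did not overlap (log2 fold change -1.42 ± 0.16, adjusted p = 5.0e-05). MARVELD2, which seals the corners where 3 cells meet, had 94.0, 89.7 and 102.7 CPM against 56.5, 46.7 and 74.9 CPM. Its groups were separate but closer, with a log2 fold change of -0.67 ± 0.16 (adjusted p = 0.0079). TJP1 had 404, 352 and 396 CPM against 245, 212 and 260 CPM and a log2 fold change of -0.67 ± 0.11 (adjusted p = 0.00093). The scaffold therefore kept a larger share of its RNA in the knockout than CLDN4, CLDN7, OCLN or EPCAM did, a difference between genes that was not tested.

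CLDN3, a sealing claudin, rested on few reads. It had 14, 11 and 47 counts in HT1376 CT and 0, 0 and 3 counts in HT1376 FOXP3 KO, which is a ratio of 18.5 at equal depth with a 95% counting interval of 6.07 to 91.6. The interval covers counting error only. The quasi-likelihood call (adjusted p = 0.0071) was lost when HT1376 CT library 13, the deepest, was left out (adjusted p = 0.051). All 3 knockout counts were in library 13, and the fitted log2 fold change ran from -7.33 without that library to -3.17 without HT1376 FOXP3 KO library 11. The median over the members does not depend on its fitted fold change, because CLDN7 is the middle gene.

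CLDN1 and CLDN12 did not pass the test. CLDN1, the claudin of the epidermal barrier, had 212, 207 and 286 CPM in HT1376 CT and 179, 119 and 246 CPM in the knockout. The groups overlapped, and the log2 fold change was -0.36 with an interval from -0.85 to 0.13 (adjusted p = 0.25). With the library number as a block CLDN1 passed (log2 fold change -0.40, adjusted p = 0.0065; 20.6% of all genes were lower in that fit), and it passed without HT1376 FOXP3 KO library 13 (adjusted p = 0.048) or with no filter on low counts (adjusted p = 0.019). CLDN12, a claudin without the usual tail that binds ZO-1, had 44.02, 45.1 and 50.4 CPM against 38.0, 35.8 and 39.6 CPM. Its groups did not overlap, yet the log2 fold change of -0.28 (interval -0.54 to -0.03) missed the threshold after adjustment (adjusted p = 0.085).

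The second comparison set the lines side by side under IFNγ. CLDN4, CLDN7, OCLN and EPCAM again stood far lower in HT1376 FOXP3 KO, at 26.8%, 40.3%, 34.7% and 29.1% of the HT1376 CT mean. CLDN1 was now lower as well, at 57.4%, whereas MARVELD2, at 83.3%, was not called. In total 8 of 9 members tested were lower and 0 higher, against 15.7% of the 24388 genes lower and 13.2% higher. The median log2 fold change was -1.27, beside 0.02 over all genes. The estimate was again under 0 for all 9 by either tool.

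CLDN4 had 170, 188 and 210 CPM in treated HT1376 CT and 46.7, 40.9 and 64.7 CPM in treated HT1376 FOXP3 KO (log2 fold change -1.85 ± 0.17, adjusted p = 1.2e-05). OCLN had 176, 181 and 189 CPM against 60.8, 56.9 and 71.4 CPM (-1.49 ± 0.12, adjusted p = 5.8e-06). CLDN7 had 137, 142 and 153 CPM against 57.6, 47.8 and 69.0 CPM (-1.27 ± 0.14, adjusted p = 5.7e-05). In these 3 genes the treated groups were as widely separated as the untreated ones. EPCAM had 37.9, 68.6 and 59.8 CPM against 15.8, 14.7 and 17.9 CPM, so that the control libraries spread widely but stayed above all the knockout libraries (-1.73 ± 0.21, adjusted p = 0.00012).

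CLDN1 had 331, 351 and 357 CPM in treated HT1376 CT and 206, 128 and 262 CPM in treated HT1376 FOXP3 KO. The groups no longer overlapped (log2 fold change -0.76 ± 0.20, adjusted p = 0.015), but the call was lost without HT1376 CT library 13 (adjusted p = 0.058). TJP1 had 340, 300 and 340 CPM against 235, 234 and 253 CPM, a log2 fold change of -0.40 ± 0.11 (adjusted p = 0.016). That call was lost without HT1376 CT library 11 or 13 or without HT1376 FOXP3 KO library 11 (highest adjusted p = 0.078). MARVELD2 had 66.0, 59.1 and 74.4 CPM against 54.0, 49.4 and 62.8 CPM, which overlap (log2 fold change -0.22, interval -0.53 to 0.08, adjusted p = 0.26).

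The 2 remaining calls under IFNγ were the weakest. CLDN12 had 50.4, 52.9 and 49.2 CPM against 36.5, 33.3 and 38.7 CPM (log2 fold change -0.45 ± 0.13, adjusted p = 0.025), without overlap, but the call survived the omission of only 1 of the 6 libraries (adjusted p from 0.048 to 0.069). CLDN3 had 3, 11 and 6 counts in HT1376 CT and 1, 0 and 0 in HT1376 FOXP3 KO, a ratio of 33.8 at equal depth with a 95% counting interval of 5.40 to 1400. Its call (adjusted p = 0.026) was lost without HT1376 CT library 12 or without HT1376 FOXP3 KO library 12 or 13 (highest adjusted p = 0.11), and its fitted log2 fold change ran from -6.77 without HT1376 FOXP3 KO library 11 to -3.53 without HT1376 CT library 12.

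**Figure D2:**
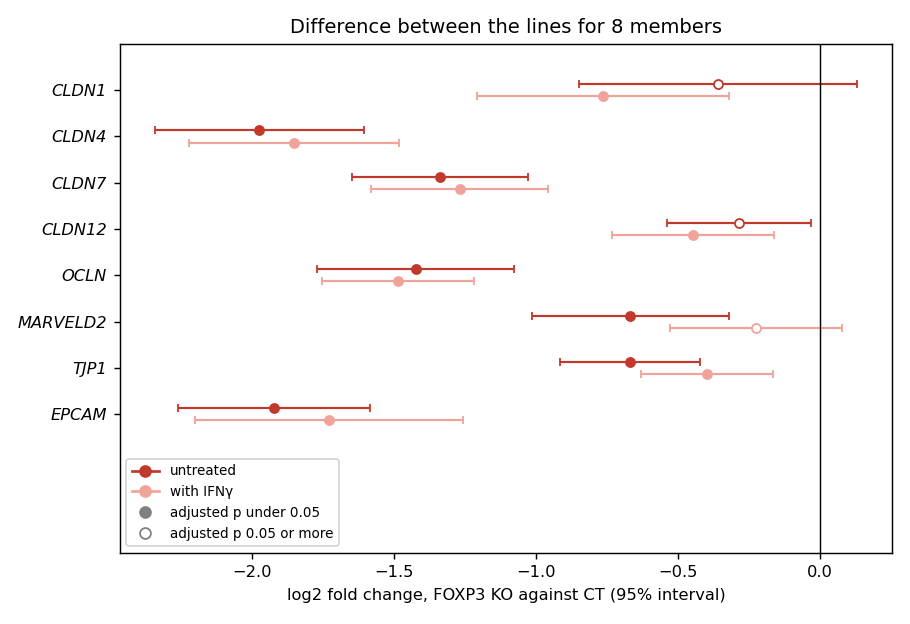
Difference between the lines for 8 members as a log2 fold change (knockout over control), untreated (dark) and under IFNγ (light), with 95% intervals; filled points passed an adjusted p of 0.05. CLDN4 and EPCAM lie furthest from 0, near -2, and CLDN1 and CLDN12 lie nearest to 0 in untreated cells. CLDN3 is left out because its knockout libraries hold at most 3 counts.

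The third comparison asked what IFNγ changed in HT1376 CT. CLDN1 rose to 147% of its untreated mean and MARVELD2 fell to 69.7%, and these were the 2 calls among 9 members tested. Over all 24416 genes 3.53% were higher and 1.82% lower, and the median log2 fold change of the members was -0.07, beside -0.02 over all genes. CLDN1 went from 212, 207 and 286 to 331, 351 and 357 CPM, without overlap (log2 fold change 0.58 ± 0.13, adjusted p = 0.021). The call was lost without untreated library 11 or 12 or treated library 13 and in a fit over all 12 libraries (adjusted p = 0.27). MARVELD2 went from 94.0, 89.7 and 102.7 to 66.0, 59.1 and 74.4 CPM, also without overlap (log2 fold change -0.49 ± 0.12, adjusted p = 0.034). Its call survived the omission of only 1 of the 6 libraries (adjusted p from 0.049 to 0.15) and was lost over all 12 libraries (adjusted p = 0.092).

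Libraries with the same number deviated together within each line, and with the number as a block EPCAM and TJP1 passed as well. EPCAM fell in each of the 3 pairs, by 0.51 to 0.82 on the log2 scale, although the groups overlapped as untreated library 11 lay under treated library 12 (log2 fold change -0.60, adjusted p = 0.15 without the block; -0.62, adjusted p = 4.5e-10 with it; adjusted p = 0.00054 with no filter on low counts). TJP1 fell in each of the 3 pairs by 0.22 to 0.25 (log2 fold change -0.21, adjusted p = 0.30 without the block and 0.0095 with it). In the blocked IFNγ fits of either line the variance was shared over genes, and the 95% intervals had the width of a normal distribution. Their p-values therefore do not measure a gene's own spread between its 3 pairs. In the blocked fit 8.67% of all genes were higher and 9.88% lower, so that 1 member higher and 3 lower among 9 is to be read against a larger share than before. CLDN4, CLDN7, CLDN12 and OCLN showed no call in either fit. Their pairs had mixed signs, with 2 of 3 numbers lower for CLDN4 and OCLN and 2 of 3 higher for CLDN7 and CLDN12, and their 95% intervals together ran from -0.39 to 0.42. CLDN3 went from 72 counts in all to 20, at 0.979 ± 0.230 and 1.055 ± 1.29 CPM.

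In HT1376 FOXP3 KO no member passed the test for IFNγ. Of 8 members tested 0 were called by edgeR and 0 by DESeq2, with 1 (EPCAM) at an unadjusted p under 0.05 (5.37% of all genes), while 0.978% of all genes were higher and 0.00414% lower. EPCAM went from 20.9, 23.1 and 22.5 to 15.8, 14.7 and 17.9 CPM, without overlap (log2 fold change -0.44 ± 0.13, adjusted p = 0.42). With the block its adjusted p was 0.011, beside 1.60% of all genes lower in that fit, and it fell in each of the 3 pairs by 0.33 to 0.65. CLDN1 was higher in each of the 3 pairs, by 0.09 to 0.20 (log2 fold change 0.15, interval -0.46 to 0.76, adjusted p = 0.999). CLDN7 was also higher in each pair, by 0.04 to 0.32 (log2 fold change 0.17, interval -0.13 to 0.47). CLDN12 was lower in each, by 0.03 to 0.10 (-0.05, interval -0.29 to 0.20). CLDN1, CLDN7 and CLDN12 did not pass in the edgeR fit with the block (adjusted p = 0.17, 0.33 and 0.93). There CLDN1 had a log2 fold change of 0.15 with an interval from 0.03 to 0.27. With the block 3 members were at an unadjusted p under 0.05, against 13.6% of all genes. MARVELD2 (-0.08, interval -0.44 to 0.28) and TJP1 (0.03, interval -0.19 to 0.25) had intervals that cover 0.

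**Figure D3:**
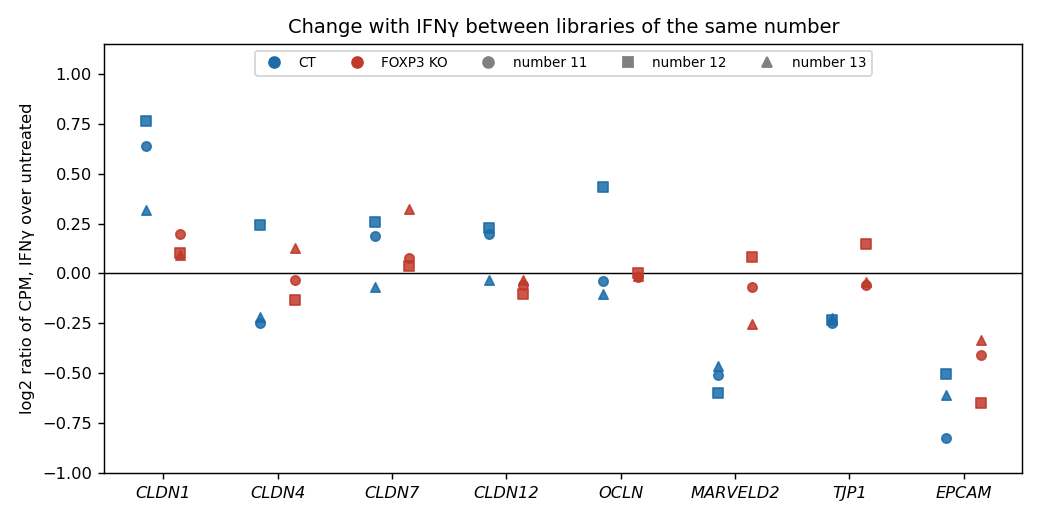
Log2 ratio of CPM with IFNγ over CPM without it, for libraries of the same number (marker shape) in HT1376 CT (blue) and HT1376 FOXP3 KO (red). EPCAM is under 0 in all 6 pairs, CLDN1 is above 0 in all 6, and MARVELD2 and TJP1 are under 0 in 3 of 3 HT1376 CT pairs and 2 of 3 knockout pairs.

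Whether IFNγ acted differently in the 2 lines was tested with an interaction term fitted to all 12 libraries. None of the 9 members tested was called by edgeR, with or without the block, or by DESeq2, beside 0.111% of 27806 genes called by edgeR, 1.21% with the block and 0.576% by DESeq2. At an unadjusted p under 0.05 there were 0 of the 9 in the unblocked fit and 3 with the block, against 6.21% and 9.50% of all genes. With the block these were CLDN1 (-0.46, interval -0.84 to -0.09) and MARVELD2 (0.43, interval 0.13 to 0.72), beside TJP1 (0.24, interval 0.0017 to 0.48). Their adjusted p in the blocked edgeR fit was 0.35, 0.22 and 0.52. Without the block, and apart from CLDN3 with its few counts, the largest estimates were those of CLDN1 (-0.44, interval -1.17 to 0.29) and MARVELD2 (0.41, interval -0.07 to 0.88). EPCAM gave 0.16 (interval -0.41 to 0.74). The calls of CLDN1 and MARVELD2 in HT1376 CT alone are therefore not shown to be particular to that line, and the intervals leave room for differences of the size of the IFNγ changes themselves.

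The composition of the claudins differed along with their sum. The RPKM of the 6 claudins added up to 169 ± 30.8 in untreated HT1376 CT, 202 ± 11.1 in treated HT1376 CT, 87.4 ± 21.2 in untreated HT1376 FOXP3 KO and 94.3 ± 25.8 in treated HT1376 FOXP3 KO (SD, n = 3). CLDN1 made up 38.4% ± 0.938 of that sum in untreated HT1376 CT, 47.3% ± 0.862 under IFNγ, and 56.2% ± 6.55 and 57.3% ± 4.803 in the untreated and treated knockout. CLDN4 made up 25.3% ± 2.08, 19.9% ± 1.08, 12.5% ± 1.59 and 11.6% ± 1.17 in the same order. CLDN7 went from 31.7% ± 0.933 and 28.7% ± 0.576 in HT1376 CT to 24.6% ± 3.94 and 25.2% ± 2.65 in the knockout. CLDN12 held 4.16% ± 0.464 and 3.76% ± 0.266 in HT1376 CT and 6.65% ± 1.31 and 5.95% ± 1.25 in the knockout. CLDN3 held at most 0.453% as a group mean. A share can rise because other genes fell, and these shares were not tested.

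**Figure D4:**
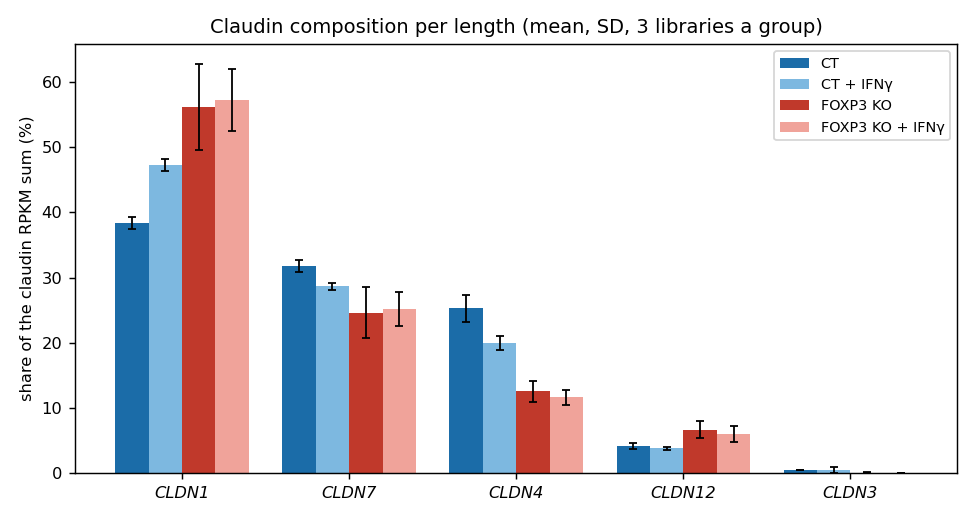
Share of each claudin in the summed RPKM of the 6 claudins (mean and SD of 3 libraries; the axis starts at 0). CLDN1 takes 38.4% in untreated HT1376 CT and 56.2% in untreated HT1376 FOXP3 KO, while CLDN4 takes 25.3% and 12.5%. CLDN2 is not drawn.

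Other genes of the junction were taken from 7 lists of 94 genes, of which 81 could be tested in untreated cells: 13 rose and 32 fell in the knockout, with a median log2 fold change of -0.29. Over all genes tested 14.0% were higher and 18.2% lower, with a median of -0.02, and the count of each list below is to be read against these shares. Of 18 other claudins, 8 were tested, 1 higher and 4 lower (14.0% and 18.2% over all genes). CLDN8 rose from 1.03 ± 0.261 to 6.90 ± 4.09 CPM (log2 fold change 2.80 ± 0.47), while CLDN23 (-2.46 ± 0.37) and CLDN9 (-1.67 ± 0.33) fell from 2.82 and 4.23 CPM. The other claudins were thus scarce in these cells.

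Of 10 other tight junction membrane proteins tested, 2 were higher and 5 lower in untreated HT1376 FOXP3 KO, against 14.0% and 18.2% over all genes. JAM2, a junctional adhesion molecule known from endothelium, was at 0.212 ± 0.200 CPM in HT1376 CT and 68.2 ± 17.3 CPM in the knockout (log2 fold change 8.03 ± 0.41). With so few counts in HT1376 CT the size of the JAM2 difference rested on single libraries: without library 13 of untreated HT1376 CT it was 9.32. F11R, its epithelial relative JAM-A, rose from 144 ± 8.43 to 248 ± 13.2 CPM (0.80 ± 0.10, adjusted p = 0.00016). ILDR1 (4.42 to 0.730 CPM, -2.59 ± 0.41) and ILDR2 (2.28 to 0.489 CPM, -2.20 ± 0.40), angulins that recruit tricellulin to cell corners, fell from low levels. LSR, a more abundant angulin, fell from 186 ± 19.5 to 51.0 ± 4.34 CPM (-1.85 ± 0.12, adjusted p = 1.2e-06 by edgeR).

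Of 18 cytoplasmic plaque genes tested, 5 were higher and 6 lower (14.0% and 18.2% over all genes). AMOT, an angiomotin that binds actin and polarity proteins, rose from 22.3 ± 9.88 to 399 ± 89.7 CPM (log2 fold change 4.19 ± 0.32), and MAGI2 rose by 2.80 ± 0.36 on the log2 scale. PATJ, a scaffold of the Crumbs complex, fell from 163 ± 24.5 to 29.4 ± 3.75 CPM (-2.46 ± 0.15). TJP3 (ZO-3), a relative of TJP1, did not pass (-0.77 ± 0.28, adjusted p = 0.056), and neither did cingulin, CGN (-0.38 ± 0.13, adjusted p = 0.050). Both lay near the threshold: TJP3 passed in 2 of 8 other fits and CGN in 4 of 8, which included the fit with the library number as a block (CGN, adjusted p = 0.032), but neither passed in any of the 6 fits that left out a library (adjusted p from 0.073 to 0.176). Of 11 polarity genes 3 were higher and 1 lower, against the same 14.0% and 18.2%. PARD3 rose from 18.3 ± 1.40 to 61.7 ± 1.16 CPM (1.76 ± 0.12) and PARD3B from 0.527 to 2.14 CPM (1.92 ± 0.56), while PARD6B fell (-0.51 ± 0.13). PARD3B no longer passed without library 13 of HT1376 CT (adjusted p = 0.061) or library 12 of the knockout (0.076), nor PARD6B without library 13 of HT1376 CT (0.076) or library 11 of the knockout (0.079).

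Of 10 partners, sheddases and sheddase inhibitors of EPCAM tested, 6 were lower and 1 higher, against 18.2% lower and 14.0% higher over all genes. CD44 fell from 772 ± 93.2 to 139 ± 85.2 CPM (log2 fold change -2.46 ± 0.33) and the tetraspanin CD9 from 61.0 ± 7.60 to 12.9 ± 4.34 CPM (-2.22 ± 0.21). ST14, the protease matriptase that cuts EPCAM, fell from 202 ± 21.9 to 78.3 ± 7.63 CPM (-1.35 ± 0.12). ADAM17, a sheddase gene of the same list, went the other way, from 111 ± 1.32 CPM in HT1376 CT to 148 ± 14.9 CPM in the knockout. Of 11 adherens junction genes 4 were lower (18.2% over all genes), which included NECTIN1 (-1.37 ± 0.22), E-cadherin, CDH1 (380 ± 23.3 to 240 ± 28.8 CPM; -0.65 ± 0.12, adjusted p = 0.0015), and plakoglobin, JUP (-0.34 ± 0.10). JUP no longer passed without library 11 or 13 of either line (adjusted p = 0.084 to 0.155).

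Of 13 transcription factors tested that are known for claudin, occludin or EPCAM genes, 1 was higher and 6 lower, against 14.0% and 18.2% over all genes. GRHL3, a grainyhead factor of barrier epithelia, fell from 54.0 ± 24.4 to 3.98 ± 1.51 CPM (log2 fold change -3.74 ± 0.37), and OVOL1, an epithelial zinc finger repressor, fell from 24.2 ± 5.55 to 4.63 ± 1.24 CPM (-2.39 ± 0.24). SNAI1, a repressor of CDH1 and of claudins, fell as well, from 1.37 ± 0.133 to 0.121 ± 0.0977 CPM (-3.46 ± 0.63). The size of the SNAI1 difference changed with single knockout libraries, to -4.34 without library 13, and it passed in all 6 fits that left out a library. GRHL2, which acts on CDH1, CLDN4 and EPCAM in other epithelia, did not pass (123 ± 11.4 and 133 ± 12.1 CPM; 0.13 ± 0.12, adjusted p = 0.46). OVOL2, from the same list as OVOL1, went the other way, from 3.64 ± 0.353 CPM in HT1376 CT to 11.3 ± 2.47 CPM in the knockout.

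**Figure D5:**
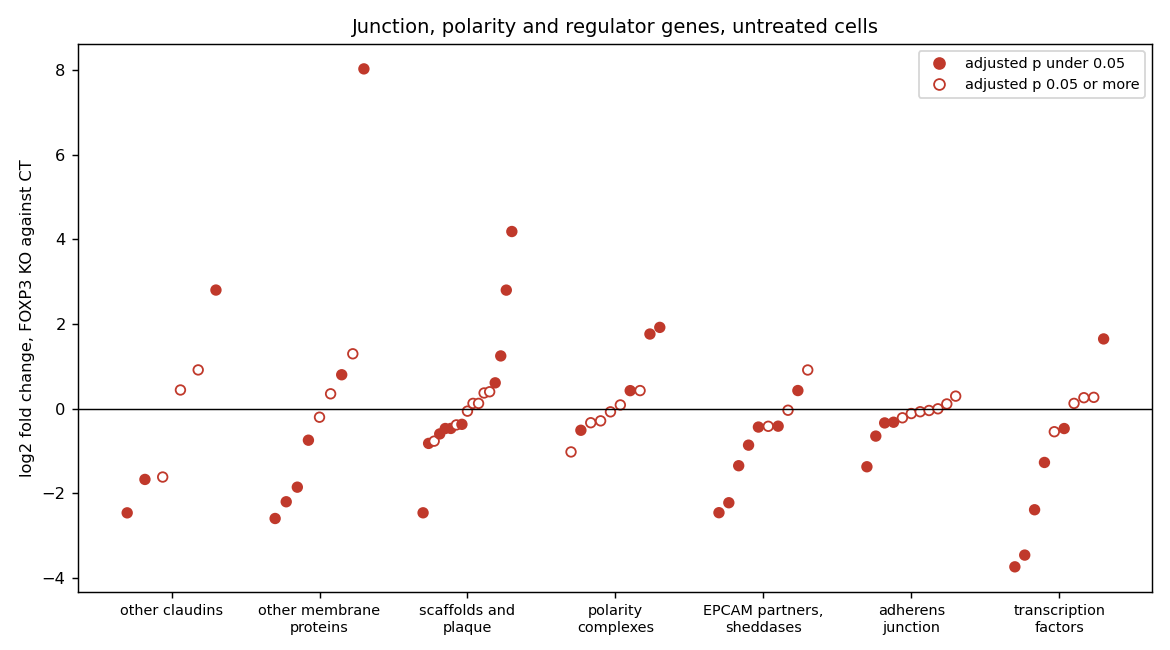
Log2 fold change (knockout over control) in untreated cells for 73 of the 81 tested genes of the 7 lists (points, ordered by value within a list; filled, adjusted p under 0.05). The 8 genes with at most 3 counts in every library of a group are not drawn, among them the called genes CLDN6, CLDN14, BVES, MPDZ and ZEB1. The 4 called adherens junction genes all lie under 0, while the other 6 lists hold called genes on each side of it.

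Under IFNγ, 15 of 81 list genes tested rose and 25 fell in the knockout, against 13.2% higher and 15.7% lower over all genes. With the library number as a block 18 were higher and 26 lower, against 16.0% and 17.9%. JAM2 (7.22 ± 0.44), AMOT (4.58 ± 0.31), CLDN8 (4.09 ± 0.63), MAGI2 (2.16 ± 0.34), PARD3 (1.53 ± 0.15) and PRKCI (0.72 ± 0.12), an atypical protein kinase C, were higher. CLDN23 (-2.48 ± 0.53), ILDR1 (-2.95 ± 0.43), LSR (-2.01 ± 0.14), PATJ (-2.42 ± 0.22), PARD6B (-0.81 ± 0.13), CD44 (-2.58 ± 0.35), CD9 (-2.27 ± 0.25), ST14 (-1.22 ± 0.14), NECTIN1 (-1.52 ± 0.21), AFDN (-0.41 ± 0.12), GRHL3 (-3.87 ± 0.33), OVOL1 (-2.14 ± 0.25) and ZEB1 (-3.82 ± 0.64) were lower. F11R was higher (0.77 ± 0.11, adjusted p = 0.00026), and CDH1 (-0.52 ± 0.12) and CGN (-0.57 ± 0.18, adjusted p = 0.033) were lower. GRHL2 passed here as higher (0.60 ± 0.11, adjusted p = 0.0022), with 96.6 ± 6.03 CPM in HT1376 CT and 142 ± 3.96 CPM in the knockout, whereas TJP3 did not pass (-0.67 ± 0.39, adjusted p = 0.24). The calls of CGN and AFDN held in 2 of the 6 fits that left out a library, and that of CGN in 7 of 8 other fits (highest adjusted p = 0.060). CGN lost its call without library 13 of HT1376 CT (adjusted p = 0.156) or any knockout library (0.051 to 0.097), and AFDN without library 12 or 13 of HT1376 CT or library 11 or 13 of the knockout (0.070 to 0.090). Without library 13 of HT1376 CT under IFNγ, JAM2 was at 8.48 and ZEB1 was at -3.10. Without library 13 of the knockout, ILDR1 was at -3.64, CD44 at -3.27 and GRHL3 at -4.52, and these 5 genes were called in each of their 6 fits.

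IFNγ in HT1376 CT gave 3 higher and 3 lower of 79 list genes tested, against 3.53% higher and 1.82% lower over all genes. LSR, the angulin of the tricellular junction known as the lipolysis-stimulated lipoprotein receptor, rose from 186 ± 19.5 to 269 ± 34.4 CPM (log2 fold change 0.55 ± 0.13) and ILDR1 from 4.42 ± 1.38 to 10.5 ± 2.36 CPM (1.24 ± 0.29). The third angulin, ILDR2, went from 2.28 ± 0.415 to 0.803 ± 0.165 CPM and did not pass (-1.54 ± 0.43, adjusted p = 0.067). ZEB1 rose from 0.797 ± 0.138 to 3.73 ± 2.25 CPM (2.31 ± 0.48), a repressor that stayed scarce. CLDN9 (-1.77 ± 0.44), JUP (-0.40 ± 0.10) and TFAP2C, which encodes AP-2 gamma (-0.78 ± 0.17), fell. None of these 6 calls held in every fit that left out a library: CLDN9 passed in 1 of 6 (without library 13 under IFNγ), JUP in 1 (without untreated library 12), and LSR and ILDR1 in 2 (without untreated library 13 or library 11 under IFNγ). TFAP2C lost its call without untreated library 11 or 13 or library 13 under IFNγ, and ZEB1 without library 13 of either condition. The highest adjusted p was 0.129 for CLDN9, 0.169 for JUP, 0.119 for LSR, 0.137 for ILDR1, 0.084 for TFAP2C and 0.159 for ZEB1. CLDN9 also lost its call in 2 of 8 other fits, and JUP and ILDR1 in 1, the fit of all 12 libraries. The log2 fold change of CLDN9 ranged from -2.53 to -1.42 with 1 library left out and that of ZEB1 from 1.63 to 2.64. With the library number as a block 12 list genes were higher and 18 lower, against 8.67% and 9.88% over all genes. TJP3, CGN, F11R, GRHL2 and CDH1 gave log2 fold changes from -0.47 to 0.07, none called without the block. CGN and GRHL2 passed as lower in 2 of 8 other fits each (lowest adjusted p = 0.0048 and 0.00092). Over those 8 fits CGN lay between -0.49 and -0.43 and GRHL2 between -0.35 and -0.30. Each passed in 0 of the 6 fits that left out a library.

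In HT1376 FOXP3 KO, 0 of 79 list genes passed for IFNγ by edgeR (0.978% higher and 0.00414% lower over all genes), with 4 at an unadjusted p under 0.05 (5.37% of all genes) and 1 call by DESeq2 (1.42% over all genes). With the block 5 were higher and 4 lower, against 3.92% higher and 1.60% lower over all genes. The interaction gave 0 of 83 by edgeR (0.111% over all genes), 8 at an unadjusted p under 0.05 (6.21%), 1 by DESeq2 (0.576%) and 2 with the block (1.21%). CGN went from 19.97 ± 0.619 to 12.2 ± 0.420 CPM in the knockout (log2 fold change -0.70 ± 0.14, adjusted p = 0.065 by edgeR). It passed in 6 of 8 other fits, which included the block (adjusted p = 6.1e-06) and DESeq2 (0.0048), and in 0 of the 6 that left out a library (adjusted p from 0.131 to 0.304).

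The genes whose levels over the 12 libraries lay closest to a member were sought for the 3 members with the widest range of group means. The measure was the root mean square difference of centred log2 CPM. For CLDN4 it was 0.120 to SSFA2, 0.129 to MAP2K3 and 0.161 to NPFFR2, among 15676 genes. For EPCAM it was 0.232 to ZNF185, 0.242 to VAT1 and 0.250 to DSE. For CLDN3, with its few counts, it was 0.545 to ULBP2, 0.562 to CLDN23 and 0.589 to PPP1R1C. The libraries share 2 lines, so genes that differ between the lines by a like amount come out as near, and the values describe these libraries only.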

How the data were processed

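Total RNA of 12 HT1376 samples was depleted of ribosomal RNA and sequenced as paired reads. Per the labels and the study's methods, the authors aligned reads to hg38 with STAR 2.7.11a (version and build from the submitters' processing notes), took out Mycoplasma sequences with Kraken and deposited raw counts per gene from htseq-count. Strand and multi-match settings are not given in the sources used here. No column of per-sample values was left unused.

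Genes with at least 10 counts in the libraries fitted were tested with edgeR 4.0.16 (R 4.3.3; TMM factors, quasi-likelihood test, two-sided, Benjamini-Hochberg adjustment over all genes tested, call at 0.05), between 2 groups of 3 libraries at a time, and over 12 for the interaction. CPM used TMM-scaled library sizes. RPKM divided CPM by the length of the annotated exon union (GENCODE 44). Alternatives were RLE factors, other filters, DESeq2 1.42.0, bias-adjusted deviance, the replicate block, a fold threshold, all 12 libraries and leaving out each library.

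The members and lists were chosen with earlier results of these data known. From each list, up to 3 called genes with the largest fold change, separate groups and more than 3 counts in some library of each group are named, plus TJP3, CGN, F11R, GRHL2 and CDH1, and FOXP3 as the target. ADAM17, OVOL2 and, in untreated cells, LSR are named outside this rule. Some genes that the rule names are not reported here.

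Pairing was checked by the correlation of deviations from group means over genes with at least 1 CPM. Libraries of the same number correlated at 0.321 to 0.382 within HT1376 CT, 0.428 to 0.564 within HT1376 FOXP3 KO and 0.126 to 0.338 between the lines. Over all genes tested the lowest value was 0.139 within a line and 0.0407 between lines. The numbers were taken to pair libraries within a line. Between lines the evidence is weaker, since libraries of different number reached 0.161 there, above the lowest value of the same number. No source says what a number marks.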

Additional observations from a re-analysis of the deposited data

How the results depend on the processing

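Between the lines, CLDN4, CLDN7, OCLN and EPCAM kept their direction and stayed past the threshold in the 8 other fits and the 6 that each left out 1 library, as did TJP1 and MARVELD2 in untreated cells, the fold requirement aside. When an absolute log2 fold change over 1 was also required, the number of members called went from 7 to 5 in untreated cells and from 8 to 5 under IFNγ (19.5% and 19.0% of all genes), and at over 2 to 1 in each (12.3% and 12.1%; chosen after seeing the data for untreated cells). Under IFNγ it lay between 5 and 7 with 1 library left out. CLDN12 under IFNγ was also lost with no filter on low counts (adjusted p = 0.053) and CLDN3 with the bias-adjusted deviance (adjusted p = 0.052).

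For IFNγ in HT1376 CT the 2 calls became 4 with the replicate block, 4 with the block and bias-adjusted deviance, 0 in the fit of all 12 libraries and 0 with the fold requirement, and 0 to 1 with 1 library left out. In HT1376 FOXP3 KO the 0 calls became 1 with the replicate block, with either deviance. The block between lines changed the call of CLDN1 in untreated cells (log2 fold change -0.40) and of no other member. Some uncalled IFNγ effects changed sign: with 1 library left out, CLDN3 in HT1376 CT ran from -1.62 to 0.32, CLDN4 from -0.21 to 0.10, OCLN from -0.044 to 0.24 and F11R from -0.054 to 0.024 (0.010 with filterByExpr). In HT1376 FOXP3 KO, CLDN1 ran from -0.072 to 0.41, CLDN4 from -0.16 to 0.14, OCLN from -0.061 to 0.091 (-0.013 over all 12 libraries), TJP1 from -0.033 to 0.078, and MARVELD2 from -0.21 to 0.10. The interaction ran from -2.99 to 2.08 for CLDN3, -0.052 to 0.29 for CLDN4, -0.075 to 0.21 for CLDN7, -0.18 to 0.12 for OCLN, -0.011 to 0.37 for EPCAM, -0.071 to 0.060 for F11R and -0.12 to 0.39 for TJP3.

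With the longest transcript as the length, the share of CLDN1 was 34.1% and 42.6% in untreated and treated HT1376 CT and 51.5% in treated HT1376 FOXP3 KO, that of CLDN7 was 34.7% and 31.8% in HT1376 CT, that of CLDN3 0.383% in untreated HT1376 CT, and that of CLDN12 6.61%, 6.06%, 10.6% and 9.53% in the 4 groups. Counts of called list genes between the lines ran, with 1 library left out, from 2 to 5 for polarity (4 in the full fit) and 2 to 4 for adherens junction genes (4) in untreated cells, and from 7 to 11 for the plaque (13) under IFNγ. Over all genes such fits called 5834 to 7736 in untreated cells (8135 in the full fit) and 5031 to 6779 under IFNγ (7046). Adherens junction genes under IFNγ went from 3 to 6 with the replicate block and 5 with the block and bias-adjusted deviance (with the block 16.0% of all genes were higher and 17.9% lower). For IFNγ in HT1376 CT the block, and the block with bias-adjusted deviance, gave 4 and 4 membrane (2 without), 7 and 5 plaque (0), 2 and 2 polarity (0), 6 and 5 EPCAM partner (0), 5 and 5 adherens junction (1) and 5 and 4 transcription factor genes (2). Over all genes the block called 8.67% higher and 9.88% lower, against 3.53% and 1.82% without it. With bias-adjusted deviance as well it called 4102 of 24416 genes. In HT1376 CT no filter gave 2 plaque, 1 polarity, 1 EPCAM partner and 2 adherens junction genes, the fit of all 12 libraries 1 membrane and 0 adherens junction genes, and filterByExpr or bias-adjusted deviance 0 other claudins (1). In the same order these fits called 2248 of 34426, 1206 of 27806, 1344 of 16858 and 1427 of 24416 genes over all. Leaving out 1 library gave 0 to 1 other claudins, 0 to 2 membrane, 0 to 1 adherens junction and 0 to 3 transcription factor genes. Over all genes it gave 761 to 1201 calls, against 1307 in the full fit. For IFNγ in HT1376 FOXP3 KO, where no list gene was called, the same pair of blocked fits gave 1 and 1 other claudin, 1 and 1 membrane, 4 and 2 plaque, 1 and 1 adherens junction and 2 and 1 transcription factor genes. Over all genes that pair called 1334 and 1027 of 24131, against 237 without the block. No filter gave 1 plaque and 1 transcription factor gene, and filterByExpr, DESeq2 and the fit of all 12 libraries 1 plaque gene each. Their calls over all genes were 355 of 34018, 238 of 17025, 342 of 24125 and 273 of 27806 in the same order. The interaction gave 1 other claudin with no filter, DESeq2 or either blocked fit, and 1 transcription factor with either blocked fit. Over all genes it gave 294 of 38206 with no filter and 160 of 27792 with DESeq2. The block gave 336 of 27806, and 230 with bias-adjusted deviance as well.

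Over all genes, calls for IFNγ in HT1376 CT went from 1307 to 2248 with no filter and 4530 with the block, those in HT1376 FOXP3 KO from 237 to 1334 with the block, and those of the interaction from 31 to 294 with no filter, 160 with DESeq2 and 336 with the block. The block with bias-adjusted deviance gave 4102, 1027 and 230. With 1 library left out the counts were 761 to 1201 in HT1376 CT and 15 to 33 for the interaction. The causes were not tested. Among the members CLDN2 and CLDN3 had the fewest counts, and what a greater depth would show was not tested.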
